A study of Mus musculus with 6 samples.

Results

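The receptors for interleukin-1 (IL-1), IL-18 and IL-33 and the first proteins below them, Myd88 and Irak2, were followed in CD4+ T cells of memory phenotype from mice with EAE (experimental autoimmune encephalomyelitis), in which T cells against myelin inflame the spinal cord. The members were 8 named genes, and every probe set that the platform annotation gave to exactly 1 of them was taken. This found 13 probe sets of 34958, for 7 genes of 18194; Il1rl1, the IL-33 receptor gene, was not analysed here. All mice were female C57BL/6, aged 8 to 10 weeks, with EAE induced by residues 35 to 55 of myelin oligodendrocyte glycoprotein (MOG). Cells came from the spinal cord (titled CNS mem, 3 arrays) or the draining inguinal lymph node (dLN mem, 3 arrays) during acute clinical disease. Neither group was from healthy or unimmunised mice, and the number of mice behind each array is not in the labels.

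These receptors are built alike. A chain that binds the cytokine pairs with an accessory chain, and the inner TIR domains of the pair recruit the adaptor MyD88 and then kinases of the IRAK family, which leads to NF-kB and MAP kinase signalling. IL-1 is known for supporting T cells that make IL-17, IL-18 for raising interferon-gamma in type 1 helper cells, and IL-33 for acting on type 2 and regulatory T cells.

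The tissues were compared gene by gene on log2 intensity. Called means an adjusted p under 0.05 by limma, adjusted over all 18194 genes. Fold and log2 changes are spinal cord over lymph node, an error written after ± is the standard error (SE) of a log2 change unless it is marked SD, and n = 3 arrays a tissue throughout. Arrays carry the numbers 1 to 3 in both tissues, so a second, planned fit held the number as a block. Arrays of one number were also seen to deviate from their tissue means together. The arrays had median intensities of 68 to 71, and their number limits the precision. Over all genes, 206 were called higher and 257 lower, and these counts ranged from 49 to 136 and from 32 to 190 when single arrays were left out.

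The T cell identity of both samples was carried by Cd3e (1358 to 2153 in spinal cord, 1248 to 2124 in lymph node) and Cd4 (2763 to 6371 and 2063 to 7669), neither of which was called. Macrophage, monocyte and microglia markers read higher in spinal cord: 17 of 17 measured genes had positive log2 changes, 0 were called on tissue alone and 7 with the block, all higher. Their summed intensity on spinal cord arrays 1, 2 and 3 was 1610, 5872 and 3349, against 872 to 982 in lymph node. Of all genes, 1.13% were called higher on tissue alone, and 3.67% higher and 7.44% lower with the block. Log2 changes were positive for 9229 of all 18194 genes. They were positive for 10 of 11 in the astrocyte, oligodendrocyte and neuron list and 4 of 8 in the B cell list. The neutrophil list summed to 1009, 2581 and 1155 against 569 to 761, with 1 of 12 measured genes called. This was Mmp9 (420, 259 and 292 against 145, 118 and 96), higher, and not called in any of the 6 fits without an array. The defining neutrophil marker S100a8 read 53, 752 and 122 against 59, 30 and 36. S100a9, also defining, read 32, 210 and 89 against 39, 29 and 31. Both overlapped between the tissues and were called in neither fit. The dendritic cell list summed to 670 to 770 against 416 to 480, with 2 of 7 called, both higher (Ccr9, called in all 6 such fits, and Itgax, in 4). Its defining markers Flt3 and Zbtb46 had log2 changes of 0.17 and 0.18 and were called in neither fit. The regulatory T cell list went both ways, with 4 of 8 measured genes positive and 4 negative and sums of 20624 to 24554 against 17495 to 22275. Of its genes, Il2ra was called higher (log2 change 2.17, in 2 of 6 fits without an array), and Ikzf2 (-2.44, in 5 of 6) and Izumo1r (-3.29, in 2 of 6) were called lower. Ctla4 (1.51) was called only with the block, and Foxp3, the defining gene, read 264, 137 and 104 against 676, 299 and 123 and was called in neither fit. Genes of the marker lists that are called were named after their values were seen. The defining natural killer (NK) cell marker Ncr1 read 51 to 64 in spinal cord, against 50 to 60 in lymph node, while the NK list as a whole, led by Gzma and Eomes, which T cells also express, summed to 555 to 1835 and 378 to 1586.

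**Figure D1:**
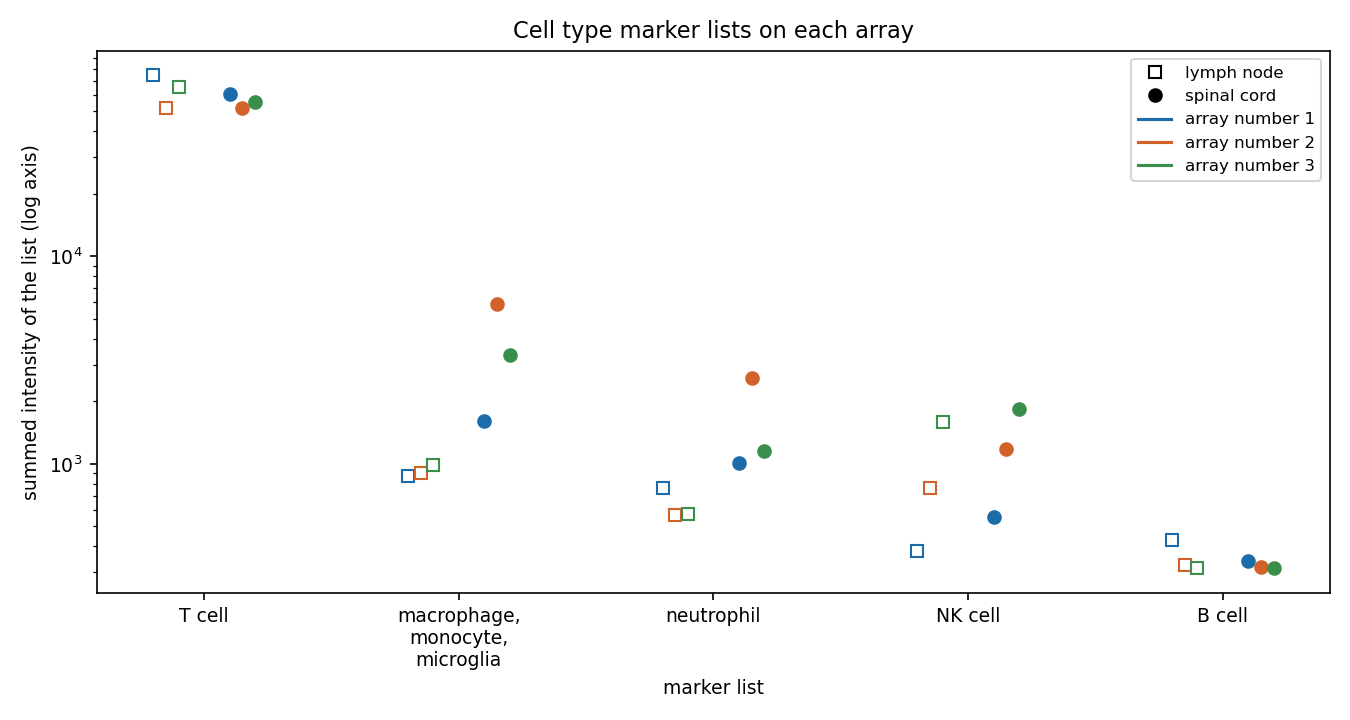
Summed linear intensity (log axis) of 5 marker lists on each array, with lymph node as open squares, spinal cord as filled circles and colours for the array number. The macrophage list lies at 872 to 982 in lymph node and reaches 5872 on spinal cord array 2, and the T cell list overlaps between the tissues.

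Of the 7 measured members, the accessory chain of the IL-18 receptor, Il18rap, and the IRAK family gene Irak2 read higher in spinal cord, 3.98-fold and 1.91-fold, and the others differed less. With tissue as the only term, limma called 0 of the 7 in either direction, against 1.13% of all genes called higher and 1.41% called lower (2.54% together). At an unadjusted p below 0.05 there were 4 members, all higher (Il18rap, Irak2, Il18r1 and Il1r2), against 5.39% of all genes higher and 8.89% lower. The same 4 had tissue groups that did not overlap, which is 57.1% of the members, against 8.81% of all genes higher and 9.67% lower without overlap. Among probe sets these were 5 of 13, against 8.39% of all probe sets higher and 8.45% lower. With the array number as a block, Il18rap and Irak2 were called higher and 0 members lower, against 3.67% of all genes higher and 7.44% lower (11.1% together). The median log2 change of the 7 was 0.56, and that of all genes 0.00194. No exact permutation test of 3 against 3 arrays can go below p = 0.1 (two-sided). The 5 probe sets of these 4 genes reached that value, and after adjustment over the 13 probe sets it was 0.26.

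The promoters of the members called with the block are shown because these 2 genes differed in the same direction and lie on different chromosomes, so that their start regions can be read beside each other. Each run is the 250 bases before the start site from RefSeq, build GRCm38.p6, plus strand, in lower case, with capitals kept for a motif match.
Il18rap, chr1:40515112-40515361: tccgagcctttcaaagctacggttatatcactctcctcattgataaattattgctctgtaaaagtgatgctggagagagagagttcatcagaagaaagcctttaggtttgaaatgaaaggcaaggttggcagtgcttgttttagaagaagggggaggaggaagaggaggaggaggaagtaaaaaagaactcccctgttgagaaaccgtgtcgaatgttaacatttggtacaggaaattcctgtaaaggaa
Irak2, chr6:113638217-113638466: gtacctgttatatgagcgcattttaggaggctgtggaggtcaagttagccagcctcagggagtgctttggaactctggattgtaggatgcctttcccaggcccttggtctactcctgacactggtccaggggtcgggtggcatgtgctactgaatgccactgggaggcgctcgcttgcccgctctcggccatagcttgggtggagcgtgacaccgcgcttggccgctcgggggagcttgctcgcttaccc

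Both windows were searched on both strands for an AP-1 motif (TGANTCA), a STAT motif (TTCNNNGAA), a T-box motif (TCACACCT) and the NF-kappaB consensus, and neither held any of these letters, so there are no capitals. Their base composition differed, with 42.0% G and C for Il18rap and 60.0% for Irak2. Of all 32851 start windows of that length, 6.75% held the AP-1, 7.02% the STAT, 1.12% the T-box and 7.25% the NF-kappaB motif. Among the 10 start windows of the 7 measured members, 0 held AP-1, 3 held STAT (Il1r2, Il18r1 and Myd88), 1 held T-box (Myd88) and 1 held NF-kappaB (Il1r1). A match is a description of letters only.

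Il18rap encodes the chain that joins IL-18 and its binding chain to complete the signalling receptor. Its brighter probe set, 1456545_at, read 4905, 6997 and 2593 in spinal cord, for arrays 1, 2 and 3 in turn, against 937, 1453 and 1037 in lymph node. Every spinal cord array lay above every lymph node array, and array 2 was the highest in each tissue. The log2 level was 12.12 ± 0.73 (SD) in spinal cord, against 10.13 ± 0.33 (SD) in lymph node, a log2 change of 1.99 ± 0.38 with a 95% interval of 1.06 to 2.93 and an adjusted p of 0.0634 by limma. With the block the adjusted p was 0.00718. Within array numbers 1, 2 and 3 the ratio was 5.23, 4.82 and 2.50.

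The dimmer probe set of Il18rap, 1421291_at, gave 1329, 4130 and 1311 in spinal cord, against 289, 458 and 380 in lymph node. It too separated the tissues, with spinal cord array 2 far above the other two. Its log2 change was 2.39 ± 0.48, with an adjusted p over all probe sets of 0.0942 on tissue alone and 0.0135 with the block, by limma. Together with the brighter set and that of Irak2 it made 3 of 13 member probe sets called higher with the block, against 2.94% of all probe sets higher and 4.7% lower (7.64% together), and 0 of 13 were called on tissue alone, against 0.701% higher and 0.784% lower (1.48% together).

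Single arrays moved these values. Without spinal cord array 2, which also had the highest macrophage and neutrophil sums, the log2 change of Il18rap was 1.67 (limma adjusted p = 0.159) for the brighter set and 1.84 for the dimmer one. Without spinal cord array 3 the brighter set reached 2.38 and was called (adjusted p = 0.0363), and the other 5 such fits did not call it (adjusted p up to 0.19). Quantile normalization (log2 change 2.11), array weights (2.15), a trended robust variance and leaving out dim genes each brought it below the threshold (adjusted p = 0.0417, 0.0429, 0.0312 and 0.0362). Median centring, the mean of probe sets and a floor at the 20th percentile did not (limma adjusted p = 0.0698, 0.0573 and 0.15). With the block and both arrays of number 1, 2 or 3 left out, the log2 change was 1.80, 1.86 or 2.33 and the call was lost (adjusted p = 0.0767, 0.195 and 0.0985). These fits keep 2 pairs, and without number 2 or number 3 they called 0 of all 18194 genes. On spinal cord arrays 1, 2 and 3 the macrophage sum was 1610, 5872 and 3349, and the brighter Il18rap set read 4905, 6997 and 2593. The part of other cell types in the Il18rap difference was not tested, and in bulk samples more cells with a transcript cannot be told apart from more transcript per cell.

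Il18r1, the chain that binds IL-18, differed less. It read 7741, 9303 and 7491 in spinal cord, against 4456, 6093 and 6221 in lymph node, so the groups did not overlap but lay close. The log2 change was 0.56 ± 0.18 (95% interval 0.13 to 0.99), or 1.47-fold, with an adjusted p of 0.217 on tissue alone and 0.0636 with the block, by limma. The ratio fell within 1.20 to 1.74 over the 3 numbers. The change of Il18rap exceeded that of Il18r1 by 1.43 on the log2 scale, and by 1.59, 1.66 and 1.05 within numbers 1, 2 and 3. That difference had an exact two-sided permutation p of 0.1, the smallest possible, and 0.2 after adjustment over 4 such pairs of members.

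**Figure D2:**
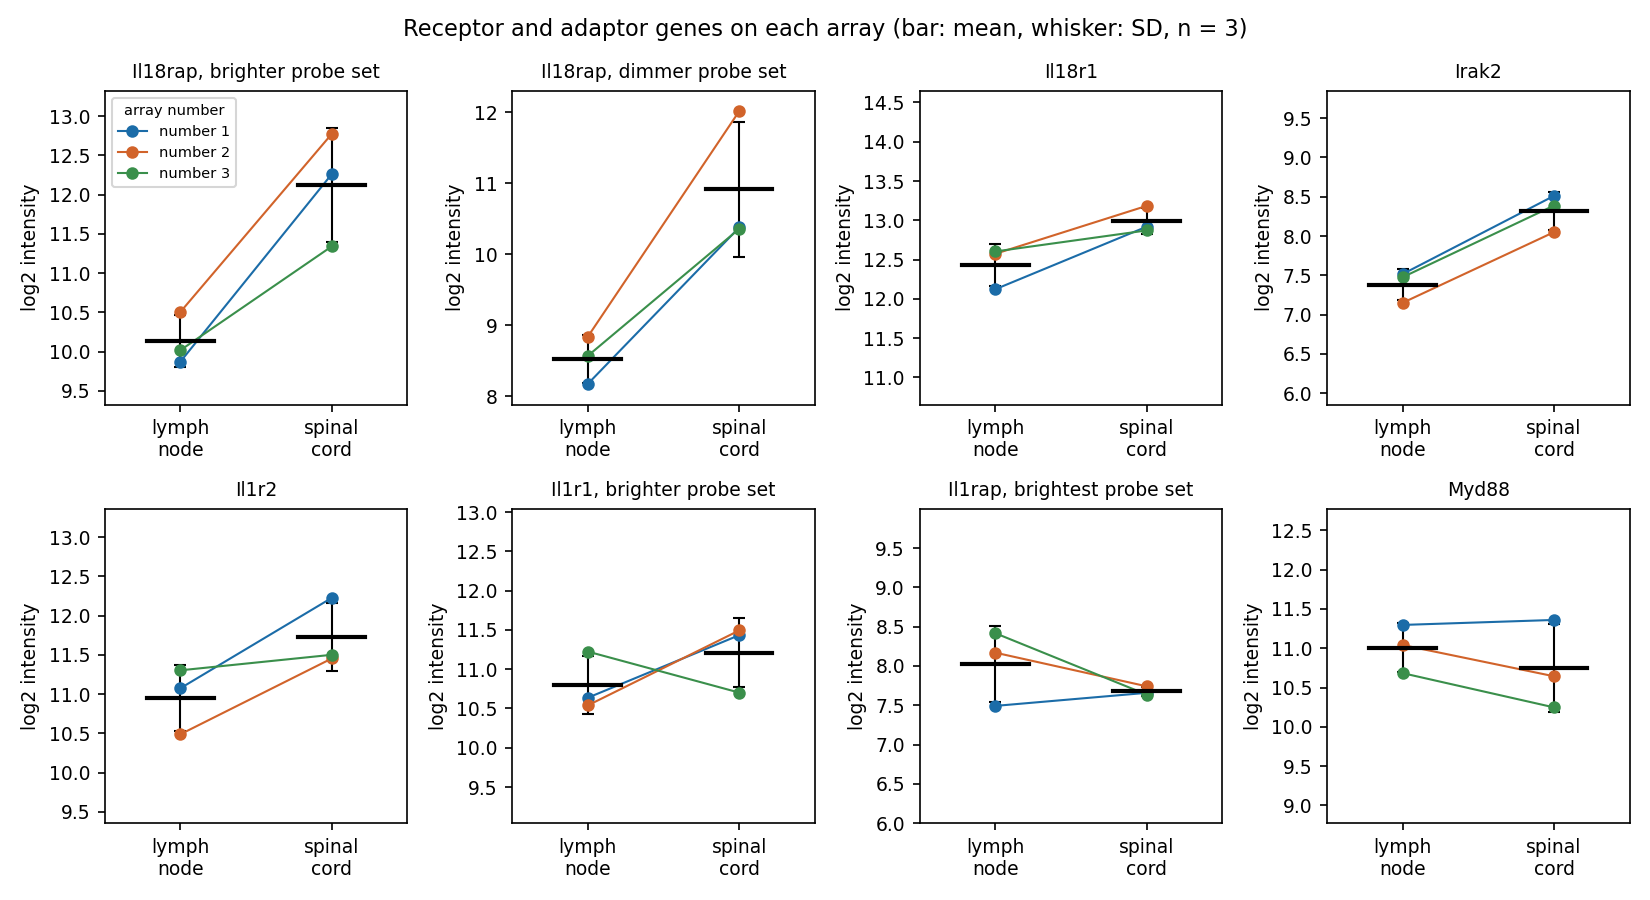
Log2 intensity of 8 member probe sets in lymph node and spinal cord, with lines joining arrays of the same number, bars for the mean and whiskers for the SD (n = 3); every panel spans at least 4 log2 units. Both Il18rap probe sets, Il18r1, Irak2 and Il1r2 have all spinal cord arrays above all lymph node arrays, while Il1r1, Il1rap and Myd88 overlap.

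The IL-1 receptors showed smaller differences than Il18rap, though that of Il1r2 was larger than that of Il18r1. Il1r1, which transmits the IL-1 signal, read 2765, 2883 and 1666 in spinal cord, against 1592, 1488 and 2393 in lymph node. Spinal cord arrays 1 and 2 were higher than their lymph node counterparts and array 3 was lower, with ratios of 1.74, 1.94 and 0.696. The log2 change was 0.41 ± 0.29, with a 95% interval of -0.28 to 1.10 and an adjusted p of 0.619 by limma (0.461 with the block). Without spinal cord array 2 it was 0.27, without lymph node array 2 it was 0.28, and without array 3 of spinal cord or of lymph node it was 0.66 or 0.62. Its second probe set, 1459777_at, stayed at 14 to 17 on all 6 arrays, below 25, the 20th percentile of all values.

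Il1r2 encodes the decoy receptor, which binds IL-1 but lacks the inner signalling domain. It read 4789, 2805 and 2898 in spinal cord against 2157, 1437 and 2527 in lymph node. The lowest spinal cord array lay just above the highest lymph node array. The log2 change was 0.77 ± 0.30 (95% interval 0.05 to 1.49, 1.71-fold), with an adjusted p of 0.317 by limma and 0.0729 with the block. Without spinal cord array 1 it was 0.52. Neutrophils and macrophages are also known to express Il1r2, and their part in its difference was not tested. On spinal cord arrays 1, 2 and 3 the macrophage sum was 1610, 5872 and 3349 and the neutrophil sum 1009, 2581 and 1155. Of the neutrophil sum, Mmp9 alone held 420, 259 and 292. The defining neutrophil marker S100a8 read 53, 752 and 122 on spinal cord arrays 1, 2 and 3, against 59, 30 and 36 in lymph node. S100a9 read 32, 210 and 89, against 39, 29 and 31. The change of Il1r2 exceeded that of Il1r1 by 0.36 on the log2 scale, and by 0.35, 0.011 and 0.72 within numbers 1, 2 and 3. The exact two-sided permutation p was 0.3 (0.3 adjusted over the 4 pairs), in a design that cannot go below 0.1.

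Il1rap is the accessory chain shared by the IL-1 and IL-33 receptors, and it had 5 probe sets that did not move together. The brightest, 1421844_at, read 202, 214 and 199 in spinal cord, against 180, 288 and 342 in lymph node. The spinal cord arrays were nearly equal and the lymph node arrays spread around them. Its log2 change was -0.35 ± 0.24 (95% interval -0.94 to 0.25; adjusted p = 0.626 by limma). It was -0.62 when lymph node array 1 was left out and -0.15 when array 3 of that tissue was. The set 1449585_at read 83, 96 and 91 against 41, 112 and 69, a log2 change of 0.40 ± 0.36, which lay between 0.031 (lymph node array 1 left out) and 0.76 (lymph node array 2 left out). The other 3 read 51 to 68, 32 to 39 and 17 to 21, with log2 changes of 0.12, 0.04 and -0.10. The mean over the 5 probe sets had a log2 change of 0.023 ± 0.12, opposite in sign to the brightest set, so no direction is given for Il1rap. Its brightest set minus Il1r1 gave a difference in log2 change of -0.63, -1.38 and -0.26 within the numbers (exact two-sided permutation p = 0.2, or 0.267 adjusted over the 4 pairs). Which transcripts, such as those for the membrane or the soluble form, each probe set detects was not analysed here.

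**Figure D3:**
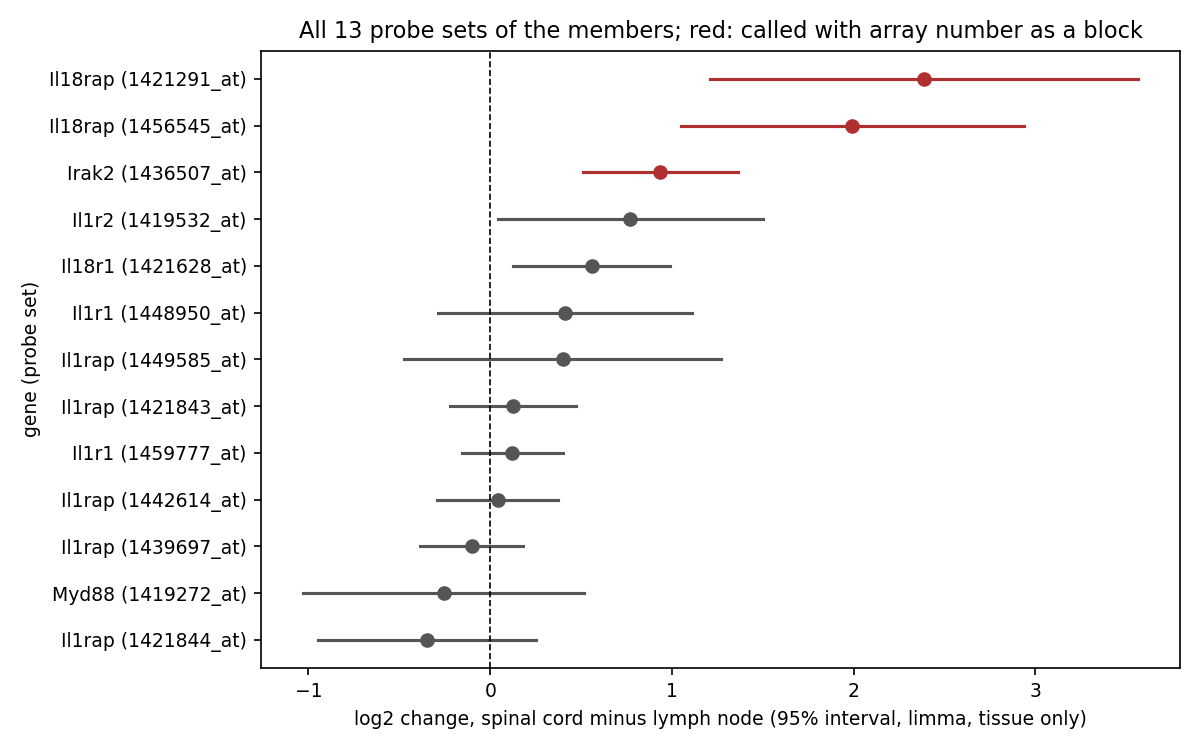
Log2 change (spinal cord minus lymph node) of all 13 member probe sets with the 95% interval from limma on tissue alone; red marks those called with the array number as a block. The 2 Il18rap sets and Irak2 lie farthest to the right, and the 5 Il1rap sets lie on both sides of 0.

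Irak2, a kinase-like protein that sustains signalling below MyD88, read 365, 265 and 335 in spinal cord, against 183, 142 and 178 in lymph node. The tissues were well apart and the array order was the same in both, 1 above 3 above 2. The log2 levels were 8.32 ± 0.24 (SD) and 7.38 ± 0.20 (SD), a log2 change of 0.94 ± 0.17 (95% interval 0.51 to 1.36). The ratios within numbers were 1.99, 1.87 and 1.88. Irak2 was not called on tissue alone (adjusted p = 0.0576 by limma) and was called with the block (adjusted p = 0.00711) and after quantile normalization (log2 change 1.02, adjusted p = 0.0447). Median centring, the mean of probe sets and array weights did not call it (limma adjusted p = 0.0527, 0.0508 and 0.0625). Neither did leaving out dim genes, a trended robust variance or the floor (0.0623, 0.0776 and 0.112). Without single arrays the log2 change stayed between 0.82 and 1.07 (adjusted p from 0.0923 to 0.182), and with the block and both arrays of number 1, 2 or 3 left out the call was lost (adjusted p = 0.0584, 0.161 and 0.158).

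Myd88, the adaptor common to these receptors and most Toll-like receptors, read 2629, 1599 and 1215 in spinal cord, against 2516, 2107 and 1644 in lymph node. The groups overlapped, and in both tissues array 1 was the highest and array 3 the lowest. The log2 change was -0.26 ± 0.32 (95% interval -1.02 to 0.51; adjusted p = 0.802 by limma, 0.328 with the block). It moved to -0.56 or -0.0053 when spinal cord array 1 or 3 was left out, and to -0.11 or -0.42 when lymph node array 1 or 3 was. The change of Irak2 exceeded that of Myd88 by 1.19 on the log2 scale, and by 0.93, 1.30 and 1.35 within the numbers (exact two-sided permutation p = 0.1, or 0.2 adjusted over the 4 pairs).

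The receptor genes lie side by side. By RefSeq gene order in GRCm38.p6, Il1r2, Il1r1, Il1rl2, Il1rl1, Il18r1 and Il18rap are 6 consecutive protein-coding genes on chromosome 1, in that order. Along the run the log2 changes were 0.77, 0.41, -0.28, not analysed here for Il1rl1, 0.56 and 1.99, so 4 of the 5 measured genes were positive and Il1rl2 was negative (adjusted p = 0.706 by limma). Beyond Il18rap, Slc9a4 had 0.06 (adjusted p = 0.887). Map4k4, on the other flank beside Il1r2, had -1.14 (adjusted p = 0.239, and 0.0055 with the block).

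The genes around the receptors were followed in 5 lists with 54 measured members of 70 listed. By limma on tissue alone 7 were called higher, which is 13.0% of them, and 1 lower, and the median log2 change was 0.12. With the block 12 were higher and 4 lower, which are 22.2% and 7.41% of them, against 3.67% and 7.44% of all genes. The higher count was 2 without spinal cord array 2, 3 without lymph node array 2 and 4 without array 3 of either tissue. The lower count was 0 without any single spinal cord array and without lymph node array 1 or 2. Over all genes, 1.13% were called higher on tissue alone, as given above.

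The ligands and soluble antagonists had 0 of 7 measured genes called on tissue alone, with 6 positive log2 changes and a median of 0.28. Over all genes the median was 0.00194, and -0.123 with dim genes left out, so dim genes tended to read slightly higher in spinal cord. Il1b read 94, 313 and 226 in spinal cord, against 76, 70 and 79 in lymph node (log2 change 1.33 ± 0.43, limma adjusted p = 0.228, 0.0685 with the block). Its order over the spinal cord arrays, with array 2 highest and array 1 lowest, was that of the macrophage sum (5872 and 1610), whose part in the Il1b difference was not tested. Il1a read 18 to 27, Il33 12 to 14 and Il1rn, the IL-1 receptor antagonist gene, 61 to 73 over the 6 arrays. Il18 read 52 to 53 in spinal cord, against 60 to 75 in lymph node (log2 change -0.34 ± 0.12, adjusted p = 0.29). Il18bp, a soluble IL-18 antagonist, read 203, 148 and 136 against 116, 96 and 83 and was called only with the block (log2 change 0.71 ± 0.21; adjusted p = 0.178, and 0.0168 with the block).

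The other receptors of the family gave 0 calls among 4 genes in both fits, with a median log2 change of -0.11. Sigirr, an inhibitory member of the family, read 2648, 1347 and 1650 in spinal cord, against 2936, 1541 and 1851 in lymph node. Each lymph node array was somewhat above its spinal cord counterpart, and the log2 change was -0.17 ± 0.34 (limma adjusted p = 0.886, 0.383 with the block). Il1rl2, the IL-36 receptor gene, had a log2 change of -0.28 ± 0.24.

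In ligand processing and release 0 of 7 genes were called on tissue alone, and with the block Aim2, a DNA sensor gene named after its values were seen (log2 change 0.92 ± 0.44), was higher and 2 genes were lower. Pycard, the adaptor that assembles inflammasomes, read 4784, 3569 and 4710 in spinal cord, against 6344, 7808 and 7925 in lymph node, with no overlap (log2 change -0.76 ± 0.17; limma adjusted p = 0.0925, and 0.0413 with the block). Casp4, an inflammatory caspase gene, was also lower with the block (log2 change -0.85 ± 0.24; adjusted p = 0.176 and 0.00903). The median of this list was -0.11.

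Of 20 signalling genes, Map3k8 alone was called on tissue alone, and with the block 3 were called, all higher. Map3k8, a kinase that feeds the ERK pathway, read 2212, 3043 and 2229 in spinal cord, against 853, 1232 and 700 in lymph node (2.73-fold, log2 change 1.45 ± 0.25, limma adjusted p = 0.0461), and leaving out any single array ended its call (adjusted p from 0.0609 to 0.154). The block added Mapkapk2 (1.16 ± 0.26) and Traf6 (0.51 ± 0.34), which were named after their values were seen. The IRAK family genes Irak1 and Irak3, relatives of Irak2, had log2 changes of 0.00 and -0.08 and were likewise named after their values were seen. The median log2 change of the list was 0.07, with 12 of 20 genes positive, against 0.94 for Irak2.

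Among 16 measured genes that these receptors, like other stimuli, are known to induce in T cells, 6 rose and 1 fell by limma on tissue alone, with a median log2 change of 0.54. Of all genes, 1.13% and 1.41% did. With the block 7 rose and 2 fell, against 3.67% and 7.44% of all genes. The block added Nfkbid, higher (log2 change 1.61, adjusted p = 0.00565), and Batf, lower (-0.96, adjusted p = 0.00803), which were named after their values were seen. The list overlaps genes already known to differ in these samples, so it is no independent evidence of a direction. Tnfaip3, an inhibitor of NF-kB, read 18547, 21857 and 19482 in spinal cord, against 3146, 3415 and 2875 in lymph node (6.35-fold, log2 change 2.67 ± 0.13, adjusted p = 0.00171), and it stayed called in all 6 fits without an array. Csf2, the gene of GM-CSF, rose by 4.21 ± 0.30 on the log2 scale (adjusted p = 0.00513). Ifng, the interferon-gamma gene, rose by 5.11 ± 0.44 (adjusted p = 0.00777) and Il2ra, a chain of the IL-2 receptor, by 2.17 ± 0.26 (adjusted p = 0.0155). Csf2 was called in all 6 fits without an array, Ifng in 5 (lost without spinal cord array 2, adjusted p = 0.0516) and Il2ra in 2 (up to 0.09). Nfkbiz, which IL-1 and Toll-like receptor signals induce through MyD88, read 8026, 11911 and 9520 against 2635, 3983 and 2034 (3.49-fold), but leaving out any single array ended its call (adjusted p from 0.0501 to 0.133). Nfkbiz, Il17a (higher, log2 change 4.38; called in 2 of 6 fits, adjusted p up to 0.0927) and Il4 (lower, -3.10; called in 1 of 6 fits, up to 0.144) were named after their values were seen.

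**Figure D4:**
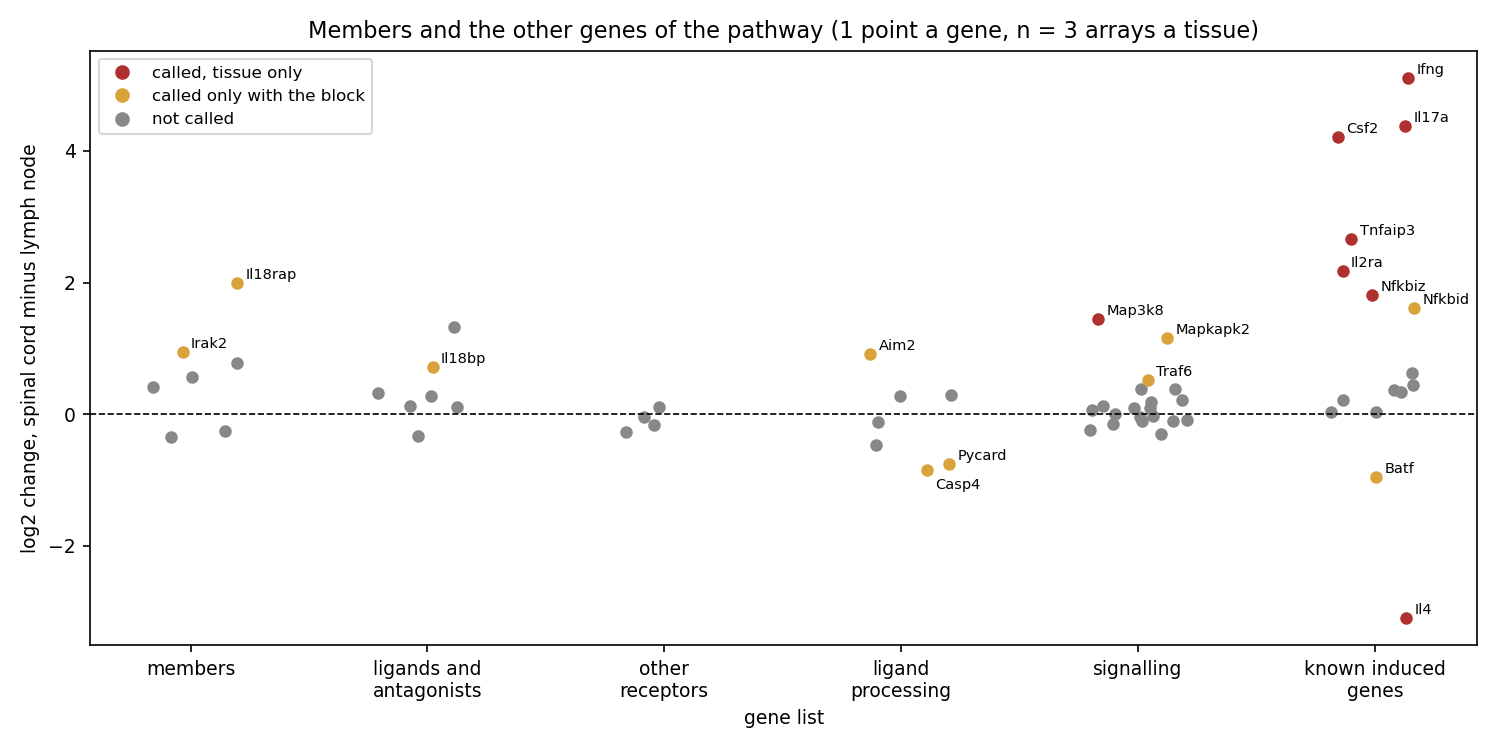
Log2 change (spinal cord minus lymph node) of the 7 members and of 54 other genes in 5 lists, 1 point a gene, coloured by whether limma called it on tissue alone, only with the block, or not. Most points of the first 5 columns lie near 0, and the genes called on tissue alone are mainly in the column of known induced genes, from Ifng at 5.11 to Il4 at -3.10. Genes called only with the block lie in every column but that of the other receptors.

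The genes with the array pattern most like the members with the largest changes were found by Pearson correlation of log2 intensity over the 6 arrays, among 10915 genes above the 40th percentile of mean level. For Il18rap these were Ccr2, a chemokine receptor gene (r = 0.997), Arsb (0.995) and Creb3l2 (0.994). Their own log2 changes were 1.31, 0.90 and 0.37. For Irak2 they were Padi2 (r = 0.997), Gstt1 (0.995) and Gm29538 (0.99), with log2 changes of 2.32, 2.50 and 0.18. The 6 points share the split into tissues, so such values describe these arrays only.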

How the data were processed

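Memory-phenotype CD4+ T cells were measured on Affymetrix arrays, 3 from spinal cord and 3 from lymph node, grouped by their titles. Per the labels' protocols, 1 ng of RNA was amplified in 2 cycles, a step that can itself vary between arrays. Per the submitters' processing notes, the authors used RMA, with its version, like the genome build, not given in the sources used here. Their deposited intensity values for 45101 probe sets are linear whole numbers between 9 and 39505, and log2 was taken here. No pair of arrays was a copy (at least 93.5% of probe sets differed). Nothing in the labels says that arrays of one tissue came from separate animals, so p-values cover only the spread among these samples, possibly technical.

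Probe sets with 1 symbol in the platform annotation (34958) were used, and 932 with several were not. Of the 34958, 34754 matched the RefSeq table of GRCm38.p6 by gene identifier, with 0 symbols changed. The brightest probe set stood for each of 18194 genes, and a further fit used every probe set. Tests were limma 3.58.1 (lmFit, eBayes) in R 4.3.3, two-sided, with Benjamini-Hochberg adjustment, and were tested on simulated data. Single values were tested in scipy 1.17.1 and figures drawn with matplotlib 3.10.9. The members and lists were chosen with earlier results of these data known. From each list the text names up to 4 called genes by adjusted p, or 2 by p where none was called, besides fixed ligand and receptor genes and cell type markers. It names the 3 genes most like each of the 2 members with the largest changes.

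After subtracting tissue means, arrays with the same number correlated over genes at 0.576, 0.509 and 0.777, and other cross-tissue pairs at -0.569 to 0.00503, which partly follows from the centring. The block was planned from the numbers in the titles, which do not say what arrays of one number share. That such arrays belong together therefore rests on the data, not on the labels. Alternatives were this replicate block, fits without each single array, quantile normalization, median centring, array weights, a trended robust variance, leaving out dim genes, a floor, the mean of a gene's probe sets and stricter thresholds. The block without both arrays of one number was added after seeing the data.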

Additional observations from a re-analysis of the deposited data

How the results depend on the processing

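In the fit with the replicate block, 668 genes were called higher and 1354 lower (206 and 257 without it), of the members 2 genes and 3 probe sets were higher, and of the pathway genes 12 were higher and 4 lower (7 and 1). The number of member genes called higher, 0 on tissue alone, was 2 under quantile normalization (Il18rap and Irak2), and 1, Il18rap, without dim genes, with the trend and robust variance model or with array weights. Single arrays left out gave 0 to 1 member genes and 0 to 1 member probe sets higher, 49 to 136 genes higher and 32 to 190 lower, and 2 to 5 pathway genes higher and 0 to 1 lower. With a floor at the 20th percentile 77 genes were higher and 84 lower, with 3 and 0 pathway genes. At an adjusted p below 0.01 these were 56 and 47, and 3 and 0. In the block without both arrays of number 2 or of number 3, chosen after seeing the data, 0 genes and 0 pathway genes were called in either direction, and without number 1, 0 pathway genes were lower. In those fits 0 members were called. The log2 change of Il1rap was 0.023 with the mean of all probe sets, the 1 reversal. The cause of these shifts was not tested. The other members kept their sign in every alternative run, 0 members were called lower in any, and the block changed no other member's call. Values near the low end of the arrays, as for Il1a and Il33, cannot show a difference.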
